A study of Homo sapiens with 4 samples.

Results

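Expression of SOX2 and its relatives was followed in H1299 cells, an established line of human lung carcinoma (non-small-cell type), after exposure to methylparaben, a preservative of foods and cosmetics. The genes were chosen by name and comprised 10 of 58735 annotated genes, namely SOX2, SOX4, SOX5, SOX6, SOX7, SOX9, SOX11, SOX12, SOX13 and the long noncoding RNA gene SOX2-OT. They were proposed with results of the same comparison already known, so their fold changes are given as a description, with no p-value printed for them, and where such a gene is said to pass the threshold used for all genes this describes the same values and adds no support. The treated group comprised 2 libraries of H1299 cells given 0.5 mM methylparaben for 48 h, and the control group comprised 2 libraries of H1299 cells labelled as ethanol (EtOH) controls. The labels name no genetic change, and all 4 libraries came from the same cell line. Duplicates are stated, but whether they were grown as separate cultures is not, so the p-values below reflect spread between libraries that may be only technical.

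SOX proteins are transcription factors that bind the minor groove of DNA through a domain called the HMG box and bend it, usually beside a partner protein. SOX2 keeps embryonic and neural progenitor cells undifferentiated, shapes the airway epithelium during lung development, and lies in a region of chromosome 3 that is often amplified in squamous lung cancer. SOX4, SOX11 and SOX12 form the SoxC group of progenitor factors, and SOX5, SOX6 and SOX13 form the SoxD group, which has no activation domain of its own. SOX9 directs cartilage and epithelial progenitor programmes, and SOX7 is a SoxF factor of endothelial and endodermal cells. The stretch of SOX2 coding sequence most alike in the other members is shown because reads of SOX2 and of other members would be most alike there. Whether any read was assigned to the wrong member was not tested. Bases 117 to 176 of the SOX2 coding sequence were the 60 bases with the highest summed identity to the other members. The best ungapped match in each shown member is given 5′ to 3′ from GENCODE 29 transcripts (GRCh38), with capitals marking bases that differ from SOX2.
SOX2: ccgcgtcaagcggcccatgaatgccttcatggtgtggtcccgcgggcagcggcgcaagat
SOX4: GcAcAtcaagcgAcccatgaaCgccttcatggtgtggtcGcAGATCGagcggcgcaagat
SOX12: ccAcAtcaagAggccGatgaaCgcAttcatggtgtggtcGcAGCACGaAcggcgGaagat
SOX13: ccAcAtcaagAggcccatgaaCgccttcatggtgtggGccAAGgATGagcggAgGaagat
SOX9: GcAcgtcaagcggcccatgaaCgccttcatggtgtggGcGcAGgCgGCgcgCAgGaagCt
SOX11: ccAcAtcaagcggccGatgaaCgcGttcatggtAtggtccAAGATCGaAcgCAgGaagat
SOX5: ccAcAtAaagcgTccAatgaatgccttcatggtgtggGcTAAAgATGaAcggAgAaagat
SOX6: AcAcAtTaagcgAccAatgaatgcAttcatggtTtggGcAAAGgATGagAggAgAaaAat
Identity to SOX2 in this window was 48 of 60 bases for SOX4, 47 for SOX13, 46 for SOX9, 45 for SOX12, 44 for SOX5, 43 for SOX11 and 40 for SOX6. It was also 40 for SOX7, whose sequence is not shown. Between the coding sequence of SOX2 and those of the other members, the longest exact run was 21 bases, in SOX5. The longest exact runs among all pairs of members were 35 bases between SOX11 and SOX12 and 33 bases between SOX4 and SOX12. The read length is not given in the sources used here.

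Total counts ran from 2068486 to 3760982 per library. Levels are given in CPM, the count of a gene per 1000000 counts of its library after TMM scaling, which corrects totals for differences in library composition. A count of 0 allows up to 1.28 and 1.30 CPM in ethanol replicates 1 and 2 and up to 0.816 and 1.57 CPM in methylparaben replicates 1 and 2, taking 3 counts as the limit. Such limits, and the intervals below, cover counting error only. Reads appear only where a base is covered by 1 annotated transcript and no other, since 70749 transcripts lack bases of that kind and 0 of them have reads. All 6 carcinoma line markers had reads (VIM, KRT8, KRT18, CDH2, AXL and CD44), with VIM, AXL and CD44 lower among 5 tested. Their summed levels were 1378 and 1860 CPM in the ethanol and 658 and 589.8 CPM in the methylparaben libraries. AXL alone made up 1253 and 1767 CPM of the ethanol and 599 and 534 CPM of the methylparaben sums. CDH2 had 1 read, in ethanol replicate 2. All KRT18 reads were on retained-intron transcripts, and no VIM read was on a protein-coding transcript. None of 6 lung epithelium and 5 blood and immune markers had a read. SFTPB, SCGB1A1 and LYZ offered 444, 257 and 499 bases that could take reads, so a count of 0 says little about them. For comparison, 31.9% of protein-coding genes with at least 500 such bases had no reads. Of 8 neural markers 4 had reads, with summed levels of 0.866 to 2.13 CPM in the ethanol and 1.90 to 6.28 CPM in the methylparaben libraries, and CHGA, INSM1, ELAVL4 and OLIG2 were at 0. The part of these markers in the results was not tested.

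SOX2 and SOX4 were lower in the methylparaben libraries, SOX6 reads were more frequent, and SOX12 had a similar level in 3 libraries and a higher one in the fourth. Of the 10 genes 8 had reads, and 4 had enough reads to enter the comparison over all genes, which covered 8055 genes with edgeR's quasi-likelihood test. Of these 4 genes, SOX2, SOX4 and SOX6 passed the Benjamini-Hochberg adjusted threshold of 0.05, 2 lower and 1 higher, against 36.9% of all tested genes, of which 18.5% were higher and 18.4% lower. The libraries of the 2 groups did not overlap for 3 of the 4 genes, against 70.5% of all tested genes, and nothing is read from either count because the genes were chosen on this comparison. The median log2 fold change of the 4 genes was -0.79, against 0.03 over all tested genes. The genes that entered had a count high enough in at least 2 libraries, so those low in both groups are not represented in these figures.

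**Figure D1:**
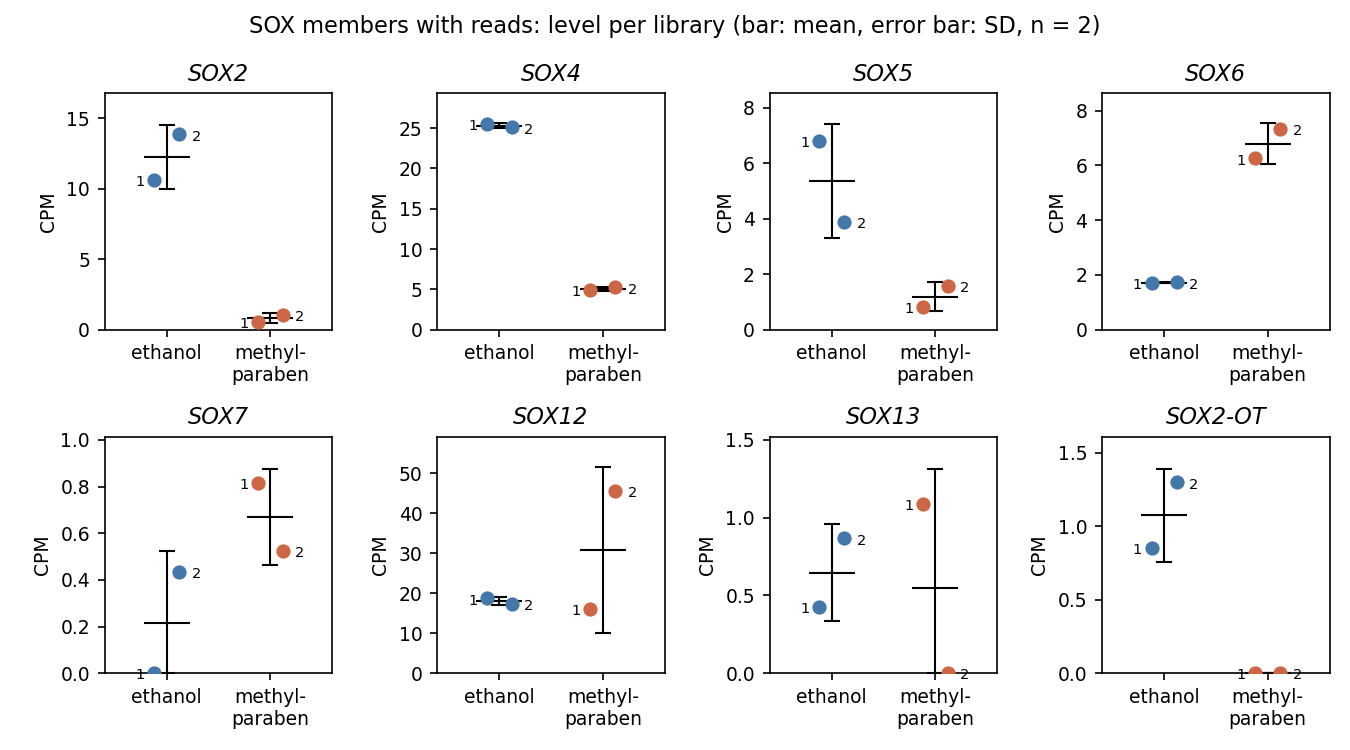
Level in CPM (y axis, each from 0) of the 8 genes with reads in each library, where numbered points are replicates, horizontal bars are means and error bars are SD (n = 2), drawn no lower than 0. SOX2 went from 10.6 and 13.9 CPM in the ethanol to 0.544 and 1.05 CPM in the methylparaben libraries, and SOX12 reached 45.5 CPM in methylparaben replicate 2 only.

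SOX2 had the largest difference among the 4 tested members. It is a gene with a single exon (ENSG00000181449.3, chromosome 3, 181711924 to 181714436, plus strand, GRCh38), and all 2513 of its bases could take reads. It had 25 and 32 reads in ethanol replicates 1 and 2 and 2 and 2 reads in methylparaben replicates 1 and 2. These counts gave 10.6 and 13.9 CPM against 0.544 and 1.05 CPM, so both methylparaben libraries lay below both ethanol libraries. The means were 12.2 ± 2.28 and 0.795 ± 0.355 CPM (SD, n = 2 per group), a log2 fold change of -3.98 ± 0.66 (SE), or 15.8-fold lower. Over the summed reads, 57 against 4, SOX2 was 17.1-fold lower, with an exact binomial 95% interval of 6.32 to 64.8. The log2 value ran from -4.35 to -2.16 over 17 alternative analyses of the same reads. Each methylparaben library held fewer reads than the 3 taken as the limit of detection, so the methylparaben level is bounded from above better than it is measured.

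The bases before the SOX2 start are shown because SOX2 had the largest difference of the tested members and because SOX2-OT runs across this position. The sequence is the RefSeq promoter window (GRCh38.p14, plus strand, chr3:181711675-181711924), 250 bases up to the start, with capitals marking matches to the motifs searched.
SOX2: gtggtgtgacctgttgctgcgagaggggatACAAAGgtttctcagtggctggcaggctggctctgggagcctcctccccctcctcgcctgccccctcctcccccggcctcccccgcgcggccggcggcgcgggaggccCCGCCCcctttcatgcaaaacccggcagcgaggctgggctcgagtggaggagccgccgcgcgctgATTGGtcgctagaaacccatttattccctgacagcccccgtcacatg
Both strands were searched for the SOX core motifs ACAATG and ACAAAG, the TATA box TATAAA, the CCAAT box CCAAT, the GC box GGGCGG and the E box CACGTG, without overlaps between different motifs in this window. The SOX2 window held 1 ACAAAG, 1 GC box and 1 CCAAT box, at 220, 112 and 47 bases before the start. Of 35116 RefSeq windows of the same length, 13.7% held ACAAAG, 42.6% a GC box and 32.0% a CCAAT box. A match is a description of the letters and not evidence of binding.

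SOX2-OT, the noncoding RNA gene whose transcripts surround SOX2 on the same strand, was barely detected. The gene (ENSG00000242808.8) spans chromosome 3 from 180989762 to 181836880 and has 90 annotated transcripts, of which 50 have bases of their own, 21595 in all. It had 2 and 3 reads in the ethanol libraries, spread over 4 transcripts, and 0 reads in both methylparaben libraries. Its ethanol level of 0.851 and 1.30 CPM lies at or under the limit that a count of 0 allows in each library, so no fold change is given. The exact binomial interval of the methylparaben over ethanol ratio had an upper bound of 0.911. All 5 reads lay on bases that end before the SOX2 start, the nearest being a stretch from 181707330 to 181707511. The deposited counts hold no read of SOX2-OT in the library with the deepest total, methylparaben replicate 1. SOX2 itself lies inside the SOX2-OT span, and since the kit and the counting are not stated to keep strands or unspliced RNA apart, reads from an unspliced SOX2-OT transcript across SOX2 cannot be told apart from SOX2 reads.

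Among the SoxC genes, SOX4 was lower with methylparaben, SOX12 was not, and SOX11 had no reads. SOX4 (ENSG00000124766.6, chromosome 6, 21592768 to 21598619) had 60 and 58 reads with ethanol and 18 and 10 with methylparaben. This gave 25.5 and 25.1 CPM against 4.90 and 5.23 CPM. The methylparaben libraries lay below the ethanol libraries, and the libraries of each group differed by little. The means were 25.3 ± 0.292 and 5.07 ± 0.237 CPM (SD, n = 2 per group), with a log2 fold change of -2.32 ± 0.39 (SE), or 4.99-fold lower. The ratio of summed reads was 5.05-fold lower (95% interval 3.32 to 7.92), and the log2 value ran from -2.42 to -1.54 over 17 alternatives. SOX4 has a single transcript, with 5684 of its 5852 bases free of other transcripts. An antisense gene over part of it, AL512380.2, had 0 reads.

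SOX12 (ENSG00000177732.8, chromosome 20, 325595 to 330224) had the most reads of the family, 44 and 40 in the ethanol and 59 and 87 in the methylparaben libraries. The levels were 18.7 and 17.3 CPM against 16.1 and 45.5 CPM. Methylparaben replicate 1 lay just below the ethanol libraries and replicate 2 far above them, so the groups overlap. The means were 18.0 ± 0.989 and 30.8 ± 20.8 CPM (SD, n = 2 per group), with a log2 fold change of 0.73 ± 0.46 (SE) that did not pass. Without methylparaben replicate 1 the log2 value was 1.33 and passed, and without methylparaben replicate 2 it was -0.13, so a single library set its direction. SOX11 (ENSG00000176887.6) had 0 reads in all 4 libraries although 8645 of its bases could take them, which allows at most 0.0944 to 0.182 CPM per kilobase in the 4 libraries. SOX11 therefore was not detectable at this depth.

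The 250 bases before the SOX12 start (RefSeq, GRCh38.p14, plus strand, chr20:325302-325551) are given for comparison with the SOX2 window, since SOX12 was the most read member and its groups overlap. Capitals again mark motif matches.
SOX12: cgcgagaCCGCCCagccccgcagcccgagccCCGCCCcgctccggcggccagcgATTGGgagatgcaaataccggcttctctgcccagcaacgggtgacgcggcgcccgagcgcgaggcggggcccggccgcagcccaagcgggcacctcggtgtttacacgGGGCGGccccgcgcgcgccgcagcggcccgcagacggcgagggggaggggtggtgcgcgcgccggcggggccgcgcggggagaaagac
This window had 79.2% G and C and 42 CG dinucleotides, against 68.8% and 20 in the SOX2 window and medians of 58.0% and 11 over all 35116 windows. It held 3 GC boxes and 1 CCAAT box and neither SOX core motif. The SOX4 window, whose RefSeq start lies inside the GENCODE transcript of SOX4, had 48.8% G and C and 4 CCAAT boxes, at 181, 114, 57 and 10 bases before the start, and no match to the other motifs. The 3 genes therefore share a CCAAT box by this search, a motif held by 32.0% of all windows.

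The SoxD genes were read on different kinds of transcript. SOX5 (ENSG00000134532.16, chromosome 12, 23529500 to 24562544, minus strand) had 16 and 9 reads with ethanol and 3 and 3 with methylparaben. This gave 6.80 and 3.90 CPM against 0.816 and 1.57 CPM, without overlap between the groups, and the gene was too low to enter the comparison over all genes. Over the summed reads, 25 against 6, SOX5 was 4.99-fold lower with an exact binomial 95% interval of 2.0 to 14.9. Most of its reads, 25 of 31 or 80.6%, fell on the protein-coding transcript SOX5-221, within bases 23529500 to 23532297 at its 3′ end. On that transcript alone there were 14 and 8 reads in the ethanol and 0 and 3 in the methylparaben libraries. The 3 methylparaben reads of the retained-intron transcript SOX5-213 all came from replicate 1, and the 3 reads of the processed transcript SOX5-212 all came from ethanol libraries.

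SOX6 (ENSG00000110693.17, chromosome 11, 15966449 to 16739591, minus strand) had 4 and 4 reads in the ethanol and 23 and 14 in the methylparaben libraries. The levels were 1.70 and 1.73 CPM against 6.26 and 7.33 CPM, with both methylparaben libraries above both ethanol libraries. The means were 1.72 ± 0.0213 and 6.79 ± 0.756 CPM (SD, n = 2 per group), a log2 fold change of 1.94 ± 0.62 (SE), or 3.84-fold higher, and the ratio of summed reads was 3.86 (95% interval 1.77 to 9.59). The gene passed the threshold in 8 of 16 alternatives, and none of the 4 analyses that left out a library placed it past the threshold, with log2 values of 1.87 to 2.05. Those 8 alternatives include the crossed pairing of replicates, which was added after seeing the data. No read fell on a protein-coding SOX6 transcript, on which 869 bases could take reads. Of 45 reads, 43 lay on a stretch of 133 bases that opens the noncoding processed transcript SOX6-205 (chr11:16739459-16739591, minus strand, GRCh38), shown because nearly the whole SOX6 signal rests on it.
SOX6-205: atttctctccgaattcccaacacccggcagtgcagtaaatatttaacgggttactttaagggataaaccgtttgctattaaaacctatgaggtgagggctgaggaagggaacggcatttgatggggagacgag
This stretch also lies within the span of C11orf58, a protein-coding gene on the opposite strand, between its exons. C11orf58 was at 479 and 502 CPM in the ethanol and 503 and 434 CPM in the methylparaben libraries, a log2 fold change of -0.07 ± 0.16 with an adjusted p of 0.786 in the edgeR test. The counting is not stated to use strand, so SOX6-205 reads and reads from C11orf58 introns cannot be told apart, and the SOX6 difference cannot be read as a change of SOX6 mRNA. C11orf58 was named after its values were seen.

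SOX13 (ENSG00000143842.14, chromosome 1, 204073115 to 204127743) had 1 and 2 reads in the ethanol and 4 and 0 in the methylparaben libraries. The ratio of methylparaben over ethanol was 1.11, with an exact 95% interval of 0.188 to 7.60, so no difference was detectable at this depth. None of its 7 reads fell on a protein-coding transcript, and 5 fell on processed and 2 on retained-intron transcripts. All 4 methylparaben reads were on the processed transcript SOX13-202, whereas the ethanol reads were on SOX13-201 and SOX13-205.

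**Figure D2:**
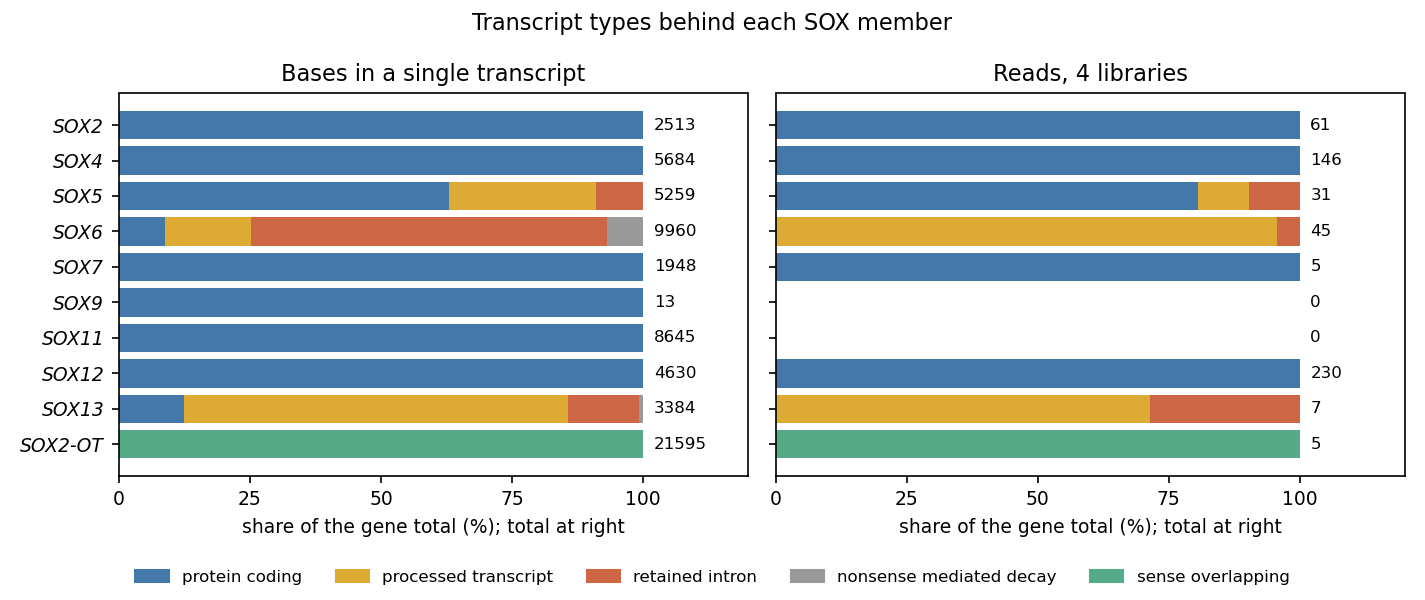
Transcript types behind each of the 10 genes, as the share of bases that lie in a single transcript (left) and of all reads in the 4 libraries (right), with totals at the right of each bar. SOX2, SOX4, SOX7 and SOX12 were read only on protein-coding transcripts, SOX6 and SOX13 only on noncoding ones, and SOX9 offers 13 bases.

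SOX7 and SOX9 could hardly be assessed. SOX7 (ENSG00000171056.7, chromosome 8, 10723768 to 10730512) had 0 and 1 reads in the ethanol and 3 and 1 in the methylparaben libraries, a ratio of 3.34 with an exact 95% interval of 0.330 to 164. The interval includes no difference. SOX9 (ENSG00000125398.6, chromosome 17, 72121020 to 72126420) had 0 reads in all libraries, but its 2 annotated transcripts overlap almost completely and leave 13 bases that belong to a single transcript. A count of 0 on so few bases allows up to 62.8 CPM per kilobase in methylparaben replicate 1 and 121 in methylparaben replicate 2, above the level measured for any other member, so the table does not show whether SOX9 is expressed. SOX9-AS1, a noncoding gene that spans SOX9 and was named after its values were seen, had 18 and 14 reads in the ethanol and 24 and 14 in the methylparaben libraries, a log2 fold change of 0.00 ± 0.50 with an adjusted p of 0.995 in the edgeR test.

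**Figure D3:**
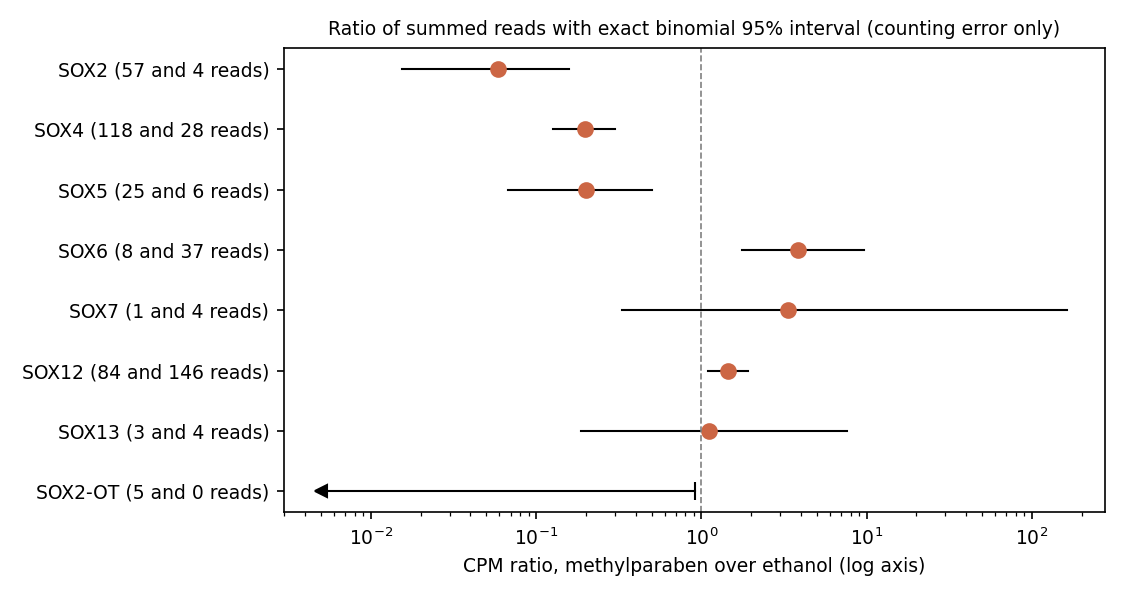
Ratio of methylparaben over ethanol CPM from the summed reads of each gene (points, log axis) with exact binomial 95% intervals that cover counting error only, and the summed reads of ethanol and methylparaben in brackets. SOX2, SOX4 and SOX5 lie below a ratio of 1, and the intervals of SOX7 and SOX13 include 1. The arrow of SOX2-OT marks an interval down to 0 with an upper bound of 0.911. The intervals of SOX6 and SOX12 lie above 1, although the SOX12 levels of the groups overlap. An interval that excludes 1 therefore does not show a difference beyond the spread between libraries.

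Per kilobase of bases that could take reads, SOX2, SOX4 and SOX12 had similar levels in ethanol and stood apart from the others. SOX2 had 4.23 and 5.51 CPM per kilobase in the ethanol libraries, SOX4 had 4.49 and 4.42, and SOX12 had 4.04 and 3.74. SOX2 and SOX4 overlapped, and SOX12 lay slightly below both. SOX5 followed at 1.29 and 0.741 CPM per kilobase, while SOX13, SOX6, SOX7 and SOX2-OT had means of 0.191, 0.172, 0.111 and 0.0498 and overlapped or lay near the limit of 3 counts. Among 11901 protein-coding genes with reads, the ethanol means of SOX2, SOX4 and SOX12 stood above 67.4%, 66.0% and 63.8% of genes. In methylparaben the order by means was SOX12 at 3.47 and 9.83 CPM per kilobase, SOX4 at 0.862 and 0.921, SOX6 at 0.628 and 0.736, SOX7 at 0.419 and 0.269, SOX2 at 0.217 and 0.417, SOX5 at 0.155 and 0.299, and SOX13 at 0.322 and 0. The values of SOX7, SOX2 and SOX5 overlapped, and those of SOX2 lay under the limits of 0.325 and 0.625 that 3 counts set for it, so their order is not resolved. The SOX6 value spreads reads of 133 bases over 9960 bases and cannot be ranked with confidence.

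The other SOX genes had no reads. SOX1, SOX3, SOX8, SOX10, SOX14, SOX15, SOX17, SOX18, SOX21 and SOX30 had 0 reads in all 4 libraries, and 8 of these 10 offered at least 500 bases that could take reads. For comparison, 31.9% of 16328 protein-coding genes with at least 500 such bases had no reads.

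The 5 lists chosen by family or function held 100 genes, of which 34 could be tested, and 5 were higher and 14 lower. This was 55.9% of those tested, against 36.9% of all tested genes, with a median log2 fold change of -0.55 against 0.03. The lists were chosen with earlier results of these data known, so nothing is read from this share or from the directions. With the list of genes near SOX2 on 3q, picked by name for position and not for function, 58 of 135 genes were tested, and 9 were higher and 21 lower. Over all tested genes 18.5% were higher and 18.4% lower, the shares to set beside the counts of each list. Among 25 SOX2 partner and pluripotency factors, 4 were tested, 0 rose and 2 fell, with a median of -0.05. POU3F2, a POU factor that pairs with SOX proteins in neural progenitors, fell from 26.8 ± 1.18 to 9.09 ± 1.76 CPM (SD), a log2 change of -1.53 ± 0.36 (SE) with an adjusted p of 0.00878. LIN28B, an RNA-binding protein that blocks let-7 maturation, fell from 430.5 ± 30.2 to 291 ± 42.2 CPM (adjusted p = 0.0295), a call that held in 9 of 17 alternatives. It was lost in edgeR with the replicate number as a block (0.0688), without retained-intron transcripts (0.0551) and with protein-coding transcripts only (0.0675). Limma on log2(FPKM + 1) (0.0723) and log2(FPKM + 0.1) (0.0801) lost it too. With a library left out its log2 change ran from -0.73 to -0.39. POU5F1, NANOG, MYC, LIN28A and PAX6 were among 16 partner genes with no reads, of which 11 offered at least 500 bases. MYC offered 248 such bases and POU5F1 333, so a count of 0 says little about them.

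Of 26 genes reported as direct SOX targets, 8 were tested, and 0 rose and 5 fell, with a median of -0.99. Over all tested genes 18.5% were higher and 18.4% lower. CDKN1B, EZH2 and MEX3A did not pass, with log2 changes of 0.07, 0.42 and -0.09. The list was chosen with earlier results known, so nothing is read from these counts. CCND1, which encodes cyclin D1, fell from 688 ± 21.2 to 121 ± 2.03 CPM (log2 change -2.50 ± 0.17, adjusted p = 2.80e-05). EGFR, the epidermal growth factor receptor gene, fell from 127 ± 2.49 to 37.7 ± 5.94 CPM (adjusted p = 0.000478), and SEMA3C, a secreted semaphorin gene, from 226 ± 5.84 to 118 ± 22.3 CPM (adjusted p = 0.00524). NES, which encodes the progenitor filament protein nestin, fell from 13.3 ± 0.165 to 4.10 ± 2.34 CPM (adjusted p = 0.0269). The NES call held in 12 of 17 alternatives, and was lost with DESeq2 (0.0749) and in limma on log2(FPKM + 0.1) (0.0781). Its log2 change was -1.78, and ran from -2.39 to -1.21 with a library left out. The cartilage genes COL2A1, ACAN, COL9A1, COL9A2, COL9A3 and COL11A2, targets of SOX9 with SOX5 and SOX6, had no reads, while MATN1 and HAPLN1 had 3 reads and 1 read in all. COL11A2 offered 315 bases that could take reads, so its count of 0 says little. COL27A1, a further cartilage collagen gene named after its values were seen, had 49 and 49 reads with ethanol and 33 and 22 with methylparaben (log2 change -1.05 ± 0.37, adjusted p = 0.0477). The COL27A1 call held in 7 of 17 alternatives. It was lost with DESeq2 (adjusted p = 0.151), and in edgeR without the filter (0.0915) and with the replicate block (0.0772). On log2(FPKM + 1) its log2 change was -0.33 (limma, adjusted p = 0.575). With a library left out its log2 change ran from -1.19 to -0.87. Whether any of these genes depends on a SOX protein in H1299 cells was not measured here.

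Of 18 enzymes and binding proteins that modify or turn over SOX proteins, 11 were tested, and 3 rose and 2 fell, with a median of -0.20. FBXW7, a ubiquitin ligase subunit that targets SOX9 among many proteins, rose from 11.6 ± 0.751 to 51.6 ± 10.9 CPM (log2 change 2.16 ± 0.31, adjusted p = 0.000881), and retained-intron transcripts held 91.9% of its reads. USP7, a deubiquitinase gene, rose by a log2 change of 2.63 ± 0.85 (adjusted p = 0.0356), and 98.3% of its reads were retained-intron reads. It had 0 and 7 reads in the ethanol libraries, and its log2 change was 1.62 without ethanol replicate 1 (adjusted p = 0.152) and 7.67 without ethanol replicate 2, so its size was not determined. The USP7 call was also lost with DESeq2 (0.0567) and on log2(FPKM + 0.1) (0.114). WWP2, a ubiquitin ligase gene, rose from 28.7 ± 1.46 to 50.7 ± 4.42 CPM (adjusted p = 0.0330), with 99.3% of its reads on protein-coding transcripts. The WWP2 call held in 8 of 17 alternatives. It was lost in edgeR with the replicate block (0.0641), with scaling by library size only (0.0674) and without the filter (0.0575). DESeq2 (0.0832) and limma on log2(FPKM + 1) (0.114) and log2(FPKM + 0.1) (0.111) lost it too. With a library left out its log2 change ran from 0.72 to 0.94. CDK2, a cell cycle kinase gene, fell from 19.5 ± 2.37 to 4.42 ± 1.07 CPM (adjusted p = 0.00536).

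Of 21 other HMG-box genes, 11 were tested, and 2 rose and 5 fell, with a median of -0.57. HMGB1, an abundant architectural chromatin protein, fell from 92.3 ± 8.43 to 25.1 ± 3.71 CPM (log2 change -1.86 ± 0.25, adjusted p = 0.000596), and BBX fell from 417 ± 1.24 to 249 ± 20.8 CPM (adjusted p = 0.00676). TOX4, with 4 and 17 reads in the ethanol libraries, rose by a log2 change of 2.64 ± 0.54 (adjusted p = 0.00499), which became 1.92 without ethanol replicate 1 and 4.04 without ethanol replicate 2. HBP1, a repressor of cell cycle genes, rose by 1.23 ± 0.28 (adjusted p = 0.00816). Retained-intron transcripts held 100% of the TOX4 and 72.3% of the HBP1 reads, against 0 for HMGB1 and BBX. Without retained-intron transcripts HBP1 did not pass (adjusted p = 0.173), nor with protein-coding transcripts only (0.0706). It also did not pass in limma on log2(FPKM + 1) (0.107) or log2(FPKM + 0.1) (0.111).

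The listed genes around SOX2 on 3q did not move one way. The list held 35 protein-coding genes, picked by name and not every gene of the span, between positions 169083499 and 183812625 of chromosome 3. Of these, 24 were tested, and 4 rose, 7 fell and 13 did not pass, with a median of -0.22. On the centromeric side, FXR1, an RNA-binding protein gene, had a log2 change of 0.30 ± 0.21 (adjusted p = 0.285), and 68.6% of its reads came from retained-intron transcripts. Without those transcripts its log2 change was -0.89 and passed (adjusted p = 0.0354). On the telomeric side, ATP11B, a phospholipid transporter gene, fell from 128 ± 30.1 to 63.4 ± 14.2 CPM (adjusted p = 0.0115), a call lost without ethanol replicate 2 (0.104). These 2 genes were picked after their values were seen. DNAJC19, which lies nearer to SOX2 than FXR1, had a log2 change of 0.05 ± 0.52 (adjusted p = 0.954). Of its reads, 100% were on retained-intron transcripts. Farther away, KLHL24 rose from 223 ± 7.23 to 448 ± 48.4 CPM (adjusted p = 0.00181), and GNB4, a G protein subunit gene, fell from 271 ± 20.4 to 135 ± 17.9 CPM (adjusted p = 0.00271). USP13, a deubiquitinase gene, fell from 101 ± 18.9 to 30.4 ± 2.93 CPM (adjusted p = 0.000816). NDUFB5, a respiratory complex I subunit gene, had 22 and 23 reads in the ethanol and 1 and 1 in the methylparaben libraries (adjusted p = 0.00172), and 59.6% of these reads were on retained-intron transcripts.

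**Figure D4:**
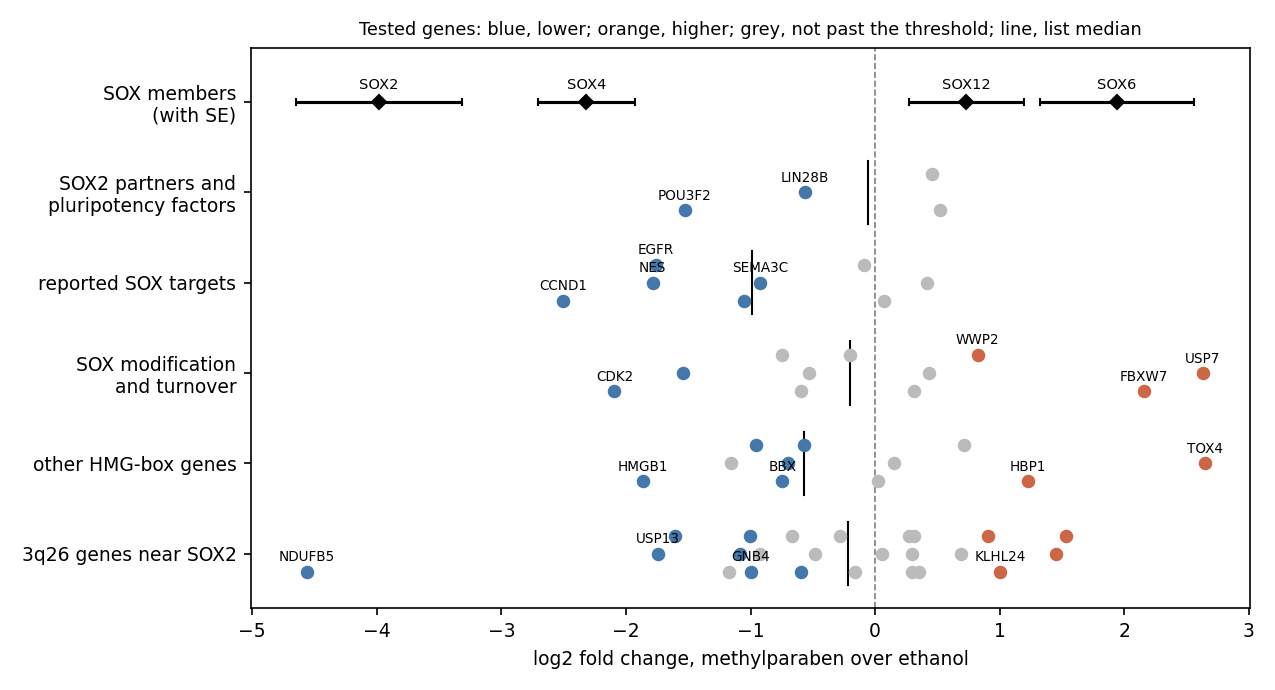
Log2 fold change of methylparaben over ethanol (x axis) for the 4 tested SOX genes (diamonds with SE) and for the tested genes of 5 lists (points, with list medians as lines), named as in the text. The list of other SOX genes has no tested gene, and the row labelled 3q26 holds the listed genes near SOX2 on 3q up to position 183812625. SOX2 at -3.98 lies to the left of all listed genes other than NDUFB5 at -4.56, and the targets median is at -0.99.

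By Euclidean distance between log2 CPM values centred over the 4 libraries, the genes most like SOX2 among 5622 candidates were CDKN2B-AS1 (distance 0.261), NDUFB5 (0.304), IQGAP3 (0.369), SEMA3A (0.394) and IL6R (0.399). CDKN2B-AS1, a noncoding RNA gene at the CDKN2A and CDKN2B locus, was at 14.9 and 16.4 CPM in the ethanol and 1.09 and 1.57 CPM in the methylparaben libraries. The genes most like SOX4 were MAT2A (0.0837), MIR155HG (0.10), TMEM156 (0.113), TTC30B (0.125) and NDUFAF4 (0.127). MAT2A, which encodes the enzyme that makes S-adenosylmethionine, was at 1327 and 1311 CPM in the ethanol and 276 and 313 CPM in the methylparaben libraries. With 4 libraries in 2 groups, this distance depends mostly on the size of the group difference.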

How the data were processed

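Poly(A) RNA-seq libraries (TruSeq, per the labels' protocols) of H1299 cells were compared, 2 with methylparaben and 2 with ethanol. The authors deposited raw read counts per transcript, for 206601 transcripts, and FPKM values with their log2 of FPKM plus 1, per the file headers. The sources used here do not name the aligner or counting program; the submitters' processing notes list GRCh38, DESeq2, limma and edgeR. The deposited p-values of the authors' own comparison were not used. All transcripts matched GENCODE 29 in length, and single-transcript bases were derived from its exons without regard to strand.

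FPKM rows were joined to counts by transcript ID and counts were summed per gene. edgeR 4.0.16 (R 4.3.3) was used with filterByExpr (minimum count 10, total 15), TMM and the two-sided quasi-likelihood F-test, Benjamini-Hochberg adjusted over 8055 genes. The SE is the log2 fold change over the square root of F. Exact binomial intervals (95%, Clopper-Pearson) used effective library sizes. Within groups, counts differed by more than sampling noise (chi-square per degree of freedom 5.34 and 13.5). Scripts were tested on simulated data.

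The members and the lists were chosen with earlier results of these data known. From each list, up to 4 genes past the threshold with the smallest p are named, and the 5 genes nearest to SOX2 and SOX4 at a mean of at least 5 CPM, with an added 0.5 before the log and without pseudogenes and clone-named genes. Alternatives were RLE, upper-quartile and library-size scaling, DESeq2 1.42.0 and limma 3.58.1 (voom, and on log2 FPKM with pseudocounts of 1 and 0.1). Others omitted the filter or tightened it to 5 CPM in 2 libraries, used a replicate block or transcript subsets, or left out each library. The crossed pairing of replicates, added after seeing the data, is counted among the alternatives.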

Additional observations from a re-analysis of the deposited data

How the results depend on the processing

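SOX2 and SOX4 were lower in all 17 alternatives, which reuse the reads that led to their choice and so add no support. SOX6 passed the threshold in 8 of 16, and did not with DESeq2, limma voom, no filter, the replicate block or any library left out. The 8 include the crossed replicate pairing, which was added after seeing the data. With protein-coding transcripts only SOX6 had no reads. SOX12 reversed to -0.13 without methylparaben replicate 2 and passed at 1.33 without methylparaben replicate 1. The number of SOX genes past the threshold ran from 2 to 3, and the 3 without methylparaben replicate 1 were SOX2, SOX4 and SOX12. Leaving out a library gave 1677 to 3095 genes called in all (851 to 1616 higher, 826 to 1479 lower) and 19 to 28 listed genes, lowest without ethanol replicate 1 in each case. On log2(FPKM + 0.1), limma called 1899 genes, 916 higher and 983 lower, and 15 listed genes, and on log2(FPKM + 1) 18 listed genes. Of the 349 comparisons for named listed genes, 304 kept direction and side of the threshold, 42 kept direction only, 1 newly passed (FXR1 on log2(FPKM + 1)) and 2 reversed (FXR1, at -0.89 without retained-intron transcripts and -0.86 with protein-coding transcripts only). The cause of these shifts was not tested. The median of all tested genes moved from 0.03 to -0.08 with scaling by library size only.

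The replicate numbers are not stated to mark a shared culture or day, and the deviations of same-numbered libraries correlated at -0.154 over 8055 genes. With the replicate block 2488 genes, 24 listed genes and 2 SOX genes passed. The crossed pairing, added after seeing the data, gave 3292 genes, 31 listed genes and 3 SOX genes. Depth limits SOX2 in methylparaben, SOX6 in ethanol, SOX5, SOX7, SOX13 and SOX2-OT, each at under 10 reads in at least 1 group.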
